A study of Mus musculus with 24 samples.

Results

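The 10 genes described here encode 4 enzymes of nicotinamide adenine dinucleotide (NAD) metabolism, Nampt, Naprt, Nmnat1 and Nadk, and 6 sirtuins, Sirt1, Sirt2, Sirt3, Sirt5, Sirt6 and Sirt7. They were chosen by name, as the rows of the comparison whose mouse Ensembl identifier maps to one of these symbols, and 10 of 10 were found among 17721 genes. The EpiKO mice carried a knockout of Bmal1 (symbol Arntl in the annotation used), the core clock activator, made by a Cre recombinase under the keratin 14 promoter. This promoter is active in basal keratinocytes, so the knockout is passed to their progeny and does not reach cells of other lineages in the epidermis. RNA of 24 EpiKO animals was sequenced from enzymatically separated back skin epidermis of male C57BL/6 mice aged 8 weeks, with 4 animals at each of 6 zeitgeber times (ZT) 4 h apart, where ZT0 is lights on in a cycle of 12 h of light and 12 h of dark. They were set against WT epidermis, whose libraries are not samples of this series, so that the strain, age and sex of the WT mice are not given in the sources used here.

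NAD is a redox carrier that is also broken down by signalling enzymes, and most cells rebuild it from the nicotinamide that those enzymes release. NAMPT, the rate-limiting enzyme of this salvage route, joins nicotinamide to a ribose phosphate donor, NAPRT does the same for nicotinic acid, and the NMNAT enzymes complete the dinucleotide. In mouse liver and fibroblasts Nampt is known as a target of CLOCK and BMAL1, and the NAD-dependent deacetylase SIRT1 feeds back on the clock. Whether the epidermal clock sets the daily rhythm of these genes is the question the EpiKO comparison addresses.

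The deposited comparison holds fitted curves and no value for single libraries. The spread between animals, the depth of each library and the error of an amplitude are therefore unknown. For each gene the authors weighed 5 models: no rhythm, a rhythm in EpiKO only, a rhythm in WT only, 1 shared rhythm and different rhythms in both. A gene was assigned to a model here when its weight, a fraction from 0 to 1, was at least 0.5. The weights also give back the likelihood ratio between models, from which tests of each rhythm, of the difference in rhythm and of the difference in mean were made over all 17721 genes with Benjamini-Hochberg adjustment and a threshold of 0.05. Arntl itself passed the test of a difference in rhythm (likelihood ratio test, adjusted p = 2.3e-23) and not that of a rhythm in EpiKO (adjusted p = 0.391). The flat Arntl curve was part of the reason to take this side of the comparison as EpiKO, so it is no check of the knockout. The Arntl mean was not lower in EpiKO, where the authors' deposited table lists 9.65, against 9.50 in WT (log2), a difference of 0.16 (likelihood ratio test, adjusted p = 0.0253). These are values of the whole gene, which can include reads from exons outside a deletion, so the mean is no check of the knockout.

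Promoter sequences are shown for Nampt, the textbook clock target, and for Nadk and Sirt1, the members in which the E-box bound by CLOCK and BMAL1 was found. RefSeq promoters (GRCm38.p6, 250 bases before to 50 after a start site) were at hand for 9 of 10 members, 13 windows in all, and were searched on both strands for 4 motifs that do not overlap one another in these windows: the E-box CACGTG, its variant CACGTT, the D-box TTANGTAA and the ROR element TAGGTCA. Capitals mark the E-boxes in the sequences, which run 5' to 3' on the strand of the gene.
Nampt, chr12:32820085-32820384, plus strand: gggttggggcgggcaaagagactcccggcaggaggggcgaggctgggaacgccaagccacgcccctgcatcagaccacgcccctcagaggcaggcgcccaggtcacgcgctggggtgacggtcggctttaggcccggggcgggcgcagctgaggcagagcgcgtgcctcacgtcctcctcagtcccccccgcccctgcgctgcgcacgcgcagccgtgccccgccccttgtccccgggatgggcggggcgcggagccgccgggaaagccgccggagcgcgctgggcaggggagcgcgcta
Nadk, chr4:155563565-155563864, plus strand: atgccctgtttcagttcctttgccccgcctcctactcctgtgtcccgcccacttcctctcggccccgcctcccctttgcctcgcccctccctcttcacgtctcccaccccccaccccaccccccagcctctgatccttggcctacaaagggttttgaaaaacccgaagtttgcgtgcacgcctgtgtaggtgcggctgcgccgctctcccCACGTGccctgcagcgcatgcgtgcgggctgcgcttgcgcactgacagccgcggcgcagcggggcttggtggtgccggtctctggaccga
Sirt1, chr10:63338986-63339285, minus strand: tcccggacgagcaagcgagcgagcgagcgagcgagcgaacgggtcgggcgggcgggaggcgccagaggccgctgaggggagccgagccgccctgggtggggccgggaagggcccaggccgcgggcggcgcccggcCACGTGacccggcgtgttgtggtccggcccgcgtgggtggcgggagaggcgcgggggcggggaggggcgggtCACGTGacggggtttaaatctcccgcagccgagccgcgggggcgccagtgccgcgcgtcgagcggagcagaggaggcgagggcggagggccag
The Nadk window shown holds an E-box that starts 40 bases before its start site, while the other Nadk window, chr4:155562131-155562430, has none of the 4 motifs, and the Sirt1 window holds a pair that start 115 and 43 bases before it. An E-box is found in 7.15% of the 32851 promoters of this length. The Nampt window has none of the 4 motifs, which says only that these letters are not in this stretch. A ROR element, present in 2.61% of promoters, was found at Sirt5, and the other members with a promoter had no match.

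Where a member was assigned a rhythm, it was a shallow one shared by both genotypes. Nampt, Nadk and Sirt2 were assigned the same rhythm, Naprt, Nmnat1, Sirt3 and Sirt6 none, and Sirt1, Sirt5 and Sirt7 stayed below the weight limit, as did 11.3% of all genes. Thus 3 of 10 members had the same rhythm, against 16.7% of all genes, and 4 of 10 had none, against 56.7%. Among genes at or above the median level these shares were 24.9% and 40.6%. No member was assigned a rhythm in EpiKO only or in WT only, classes that hold 4.31% and 8.41% of all genes, and none was assigned different rhythms, a class of 2.65%. With 10 members, these counts do not set the group apart from the table.

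**Figure D1:**
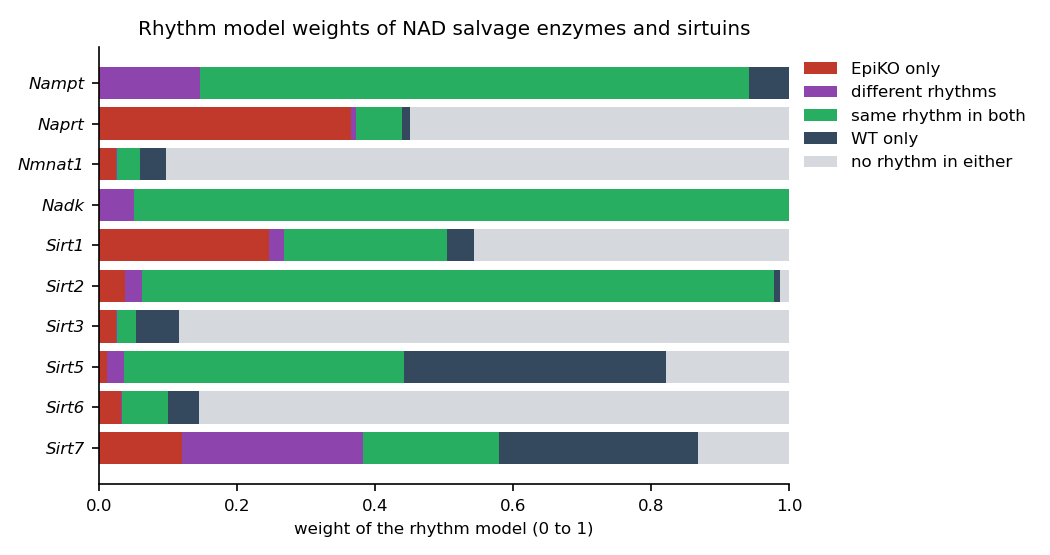
Weights of the 5 rhythm models for the 10 genes, 1 stacked bar per gene, on an axis from 0 to 1, as given in the authors' deposited table. The shared rhythm takes most of the bar for Nampt (0.797), Nadk (0.95) and Sirt2 (0.917), no rhythm takes most of it for Nmnat1, Sirt3 and Sirt6, and Sirt7 is divided over all 5 models.

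Nampt (ENSMUSG00000020572; chromosome 12, 32819545 to 32853349, mm10) kept a fitted rhythm of one shape in both genotypes. The authors' deposited table gives its shared curve a weight of 0.797, a peak at ZT14.3, early in the dark phase, and an amplitude of 0.27 (log2, peak to trough). Peak over trough is thus 1.20-fold, and 63.1% of the genes with the same rhythm have a larger amplitude. It is close to the median of 1.21-fold over same-rhythm genes at or above the median level. The rhythm passed in WT (likelihood ratio test, adjusted p = 0.0015) and missed the threshold in EpiKO (adjusted p = 0.0601). It passed in EpiKO when genes of low level were left out before adjustment (adjusted p = 0.0466). The test of the difference itself did not pass (adjusted p = 0.487), and the weight of a shared curve was 5.52 times that of different curves. No interval of the amplitude difference can be had from the fitted curves, so the missed threshold does not show that the rhythms were equal.

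Nadk (ENSMUSG00000029063; chromosome 4, 155562378 to 155591001), the cytosolic kinase that turns NAD into NADP, had the highest weight for a shared rhythm in the group. Its shared curve has a weight of 0.95, a peak at ZT16.6 and an amplitude of 0.31 (log2) in the authors' deposited table. This is a peak over trough of 1.24-fold, close to the median of 1.24-fold over the 2954 genes with the same rhythm. Nadk was the single member whose rhythm passed in EpiKO (likelihood ratio test, adjusted p = 6.53e-06). There 12.4% of all genes passed, and 18% of genes at or above the median level. Before adjustment, p in EpiKO was under 0.05 for 6 members, 25.5% of all genes and 35.2% of genes at or above the median level. The Nadk rhythm passed in WT as well (likelihood ratio test, adjusted p = 0.00251). The difference in rhythm did not pass (adjusted p = 0.806), and the shared curve had 19.2 times the weight of different curves.

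The remaining salvage enzymes had no assigned rhythm. Naprt (chromosome 15, 75890956 to 75894481), which starts the nicotinic acid branch, has a weight of 0.55 for no rhythm and 0.365 for a rhythm in EpiKO only in the authors' deposited table, and the test of a rhythm in EpiKO did not pass (likelihood ratio test, adjusted p = 0.146). Nmnat1 (chromosome 4, 149467572 to 149485202), the nuclear enzyme of the last step, has no rhythm by the authors' deposited table, at a weight of 0.904. Of the 51-base windows of Naprt transcripts, 9.27% also occur in transcripts of another gene, mostly its neighbour Eef1d, so its level is less certain.

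Among the sirtuins, Sirt2 (chromosome 7, 28766735 to 28788661), a mainly cytosolic deacetylase, was the one with an assigned rhythm. Its shared curve has a weight of 0.917, a peak at ZT12.8 and an amplitude of 0.16 (log2) in the authors' deposited table, or 1.12-fold, and 94.4% of same-rhythm genes have a larger one. Neither genotype alone passed (likelihood ratio test, adjusted p = 0.0547 in EpiKO and 0.11 in WT). A joint test of a rhythm in either genotype, added after seeing the data, did (adjusted p = 0.0106), as it did for Nampt, Nadk and Sirt7. That is 4 of 10 members, against 28.5% of all genes and 41.7% of genes at or above the median level. The Sirt2 call in EpiKO was gained when genes of low level were left out (adjusted p = 0.0424).

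Sirt1 (chromosome 10, 63319005 to 63381704), the nuclear deacetylase linked to the clock, was left unassigned with 0.456 for no rhythm, 0.246 for EpiKO only and 0.237 for the same rhythm in the authors' deposited table. The models with a rhythm in EpiKO sum to 0.504 and those with a rhythm in WT to 0.297, and neither rhythm passed (likelihood ratio test, adjusted p = 0.167 in EpiKO and 0.456 in WT). The pair of E-boxes in its promoter window thus stood beside no called rhythm in either genotype.

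Sirt7 (chromosome 11, 120618372 to 120625240), a nucleolar sirtuin, came nearest to a difference between genotypes. Its largest weights are 0.289 for WT only, 0.263 for different rhythms and 0.197 for the same rhythm in the authors' deposited table. The WT curve of the chosen model peaks at ZT14.9 with an amplitude of 0.18 (log2) in the authors' deposited table. The rhythm passed in WT (likelihood ratio test, adjusted p = 0.0456), a call that was lost with the F distribution (adjusted p = 0.0816), and not in EpiKO (adjusted p = 0.119). The difference in rhythm had an unadjusted p of 0.0156 and did not pass after adjustment (adjusted p = 0.168).

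Sirt5 (chromosome 13, 43365496 to 43395203), a mitochondrial desuccinylase, was not assigned a class. Its weight is 0.407 for the same rhythm and 0.38 for WT only, and the shared curve of the chosen model peaks at ZT2.19, early in the light phase, with an amplitude of 0.39 (log2) in the authors' deposited table. The rhythm passed in WT (likelihood ratio test, adjusted p = 0.0464), which was lost with the F distribution (adjusted p = 0.0828), and not in EpiKO (adjusted p = 0.599). Of its 51-base windows 14.0% are shared with other genes, the largest share of the group. In all, 4 of 10 members passed for a rhythm in WT, against 21.5% of all genes and 31.8% of genes at or above the median level.

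Sirt3 (chromosome 7, 140863666 to 140882309), the main mitochondrial deacetylase, and Sirt6 (chromosome 10, 81621785 to 81627797), a chromatin deacylase, have weights of 0.885 and 0.856 for no rhythm in the authors' deposited table. Sirt4, the mitochondrial sirtuin outside the group, also has no rhythm by the authors' deposited table, at a weight of 0.893. Sirt3 shares 10.6% of its windows with other genes, and 418 of its exonic bases overlap exons of Ric8a on the opposite strand, where reads cannot be told apart if counting ignored strand.

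**Figure D2:**
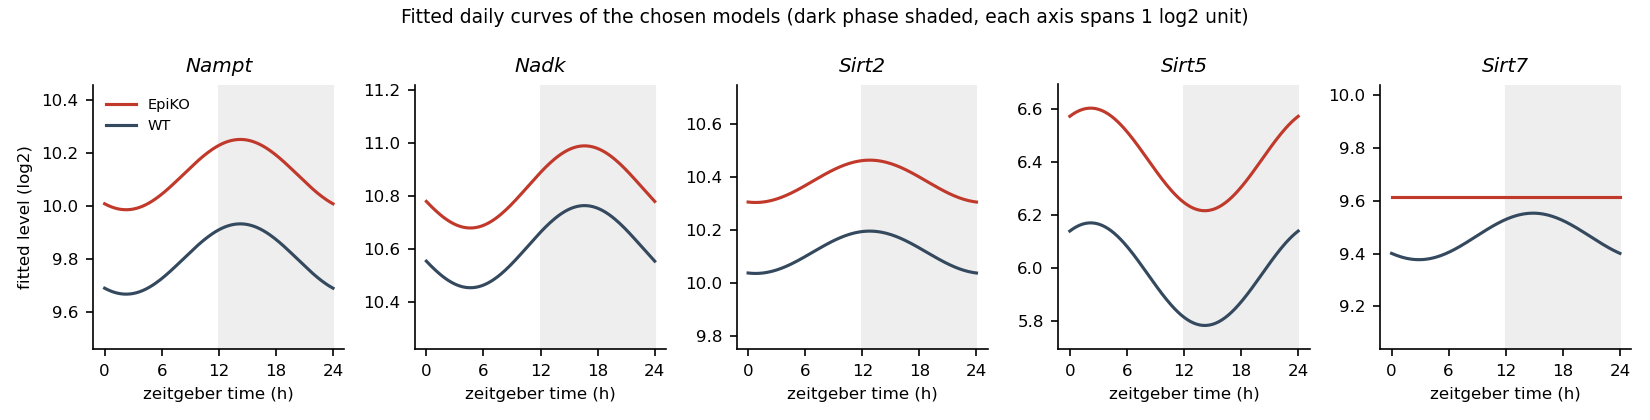
Fitted level (log2) over zeitgeber time (h) under the model the authors chose, for 5 genes with a rhythm in that model; EpiKO is red and WT dark blue. Nampt, Nadk and Sirt2 run in parallel by construction of the shared curve with EpiKO above WT, Sirt5 peaks early in the light phase, and Sirt7, like Sirt5 below the weight limit, is drawn flat in EpiKO.

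The difference in rhythm between genotypes was called in no member and in nearly every clock gene. The test passed for 0 of 10 members and for 5.17% of all genes, and 0 of 10 is near that share. At an unadjusted p under 0.05 it took 1 member, Sirt7, and 15.4% of all genes. Of 14 clock genes, the same test passed for 13. Dbp, which BMAL1 activates directly, had a likelihood ratio statistic of 140.5 (adjusted p = 1.1e-27) and the repressor Per2 one of 47.2 (adjusted p = 6.01e-09). Per1, named here as the 1 clock gene that did not pass, had 1.01 (adjusted p = 0.916). Among the members the statistic reached 8.32 for Sirt7 and 4.33 for Nampt, and was 3.47 or less for the others. Depth of rhythm differed as well. In the authors' deposited table, amplitudes (log2) were 0.16 to 0.31 in the members assigned a rhythm. In WT they were 5.42 for Dbp and 6.12 for Per2, and another clock gene passed at 0.34. The statistic grows with the depth of a rhythm, and Bst1 and Parp14, assigned a rhythm in WT only, did not pass. The missing calls thus do not show that the members' rhythms were unchanged.

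**Figure D3:**
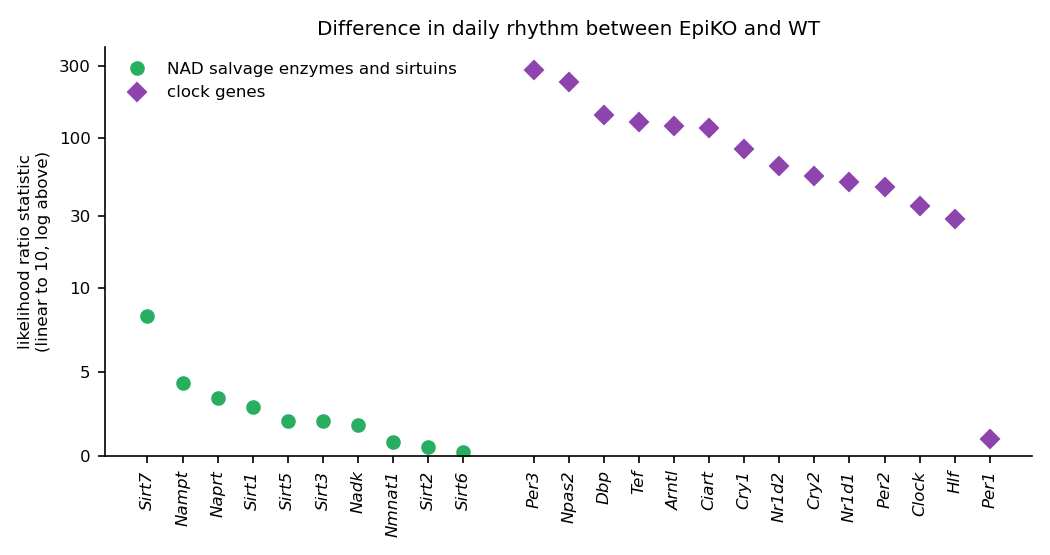
Likelihood ratio statistic for different against shared rhythms (linear up to 10 and logarithmic above) for each of the 10 genes, left, and 14 clock genes, right. Statistics of the NAD genes lie between 0.246 and 8.32, while every clock gene except Per1 is above all of them. The statistic grows with the depth of a rhythm, so a low value does not show that a rhythm was unchanged.

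The mean level over the day differed in 8 of 10 members, and in 7 of them it was higher in EpiKO, which holds for 31.8% of all genes and 43.7% of genes at or above the median level. It was lower in 1 member, against 36.4% of all genes. Differences of mean were common across the table (68.2% of genes, and 79.8% of those at or above the median level). Genotype cannot be told apart from any difference in how both sets of libraries were made. The median difference of the 10 members was 0.19 (log2, EpiKO minus WT), against 0 over all genes. Genes given 1 mean for both genotypes have a difference of exactly 0, so the median over all genes does not measure an offset between the sets of libraries.

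Nmnat1 had the largest difference of the 10. The authors' deposited table lists a mean (log2) of 6.67 in EpiKO and of 5.06 in WT, a difference of 1.62 or 3.06-fold (likelihood ratio test, adjusted p = 1.15e-88). A larger positive difference was found in 1.7% of all genes, and it is the one member whose difference exceeds 0.5. Nmnat1 shares 4.64% of its windows with other genes. Of its paralogs, Nmnat3 is given 1 mean of 7.35 (log2) for both genotypes by the authors' deposited table. Nmnat2 was lower in EpiKO, where the authors' deposited table lists 5.53, against 6.23 in WT (likelihood ratio test, adjusted p = 6.39e-08).

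The other changes reached at most 1.35-fold. For Sirt5 the authors' deposited table lists means (log2) of 6.41 in EpiKO and 5.98 in WT, 1.35-fold higher (likelihood ratio test, adjusted p = 2.25e-06). For Nampt it is 10.12 in EpiKO, against 9.80 in WT, by the authors' deposited table, 1.25-fold higher (adjusted p = 1.23e-15), so that its fitted trough in EpiKO lies above the mean of WT. Sirt2 was 1.20-fold higher (adjusted p = 7.43e-21) and Nadk 1.17-fold (adjusted p = 3.92e-12). Sirt7 was 1.11-fold higher (adjusted p = 6.7e-07), as was Naprt, at 1.10-fold (adjusted p = 0.00305). Sirt7 shares 124 exonic bases on its own strand with Mafg, a gene that is 1.06 higher in EpiKO (log2, from the means in the authors' deposited table), and the part of such reads in the Sirt7 difference was not tested. Sirt6 alone was lower in EpiKO, with a mean of 8.01 in EpiKO and 8.14 in WT by the authors' deposited table (adjusted p = 0.0206). Sirt1 and Sirt3 were given 1 mean for both genotypes, 10.38 and 6.67 (log2) in the authors' deposited table (adjusted p = 0.644 and 0.482).

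**Figure D4:**
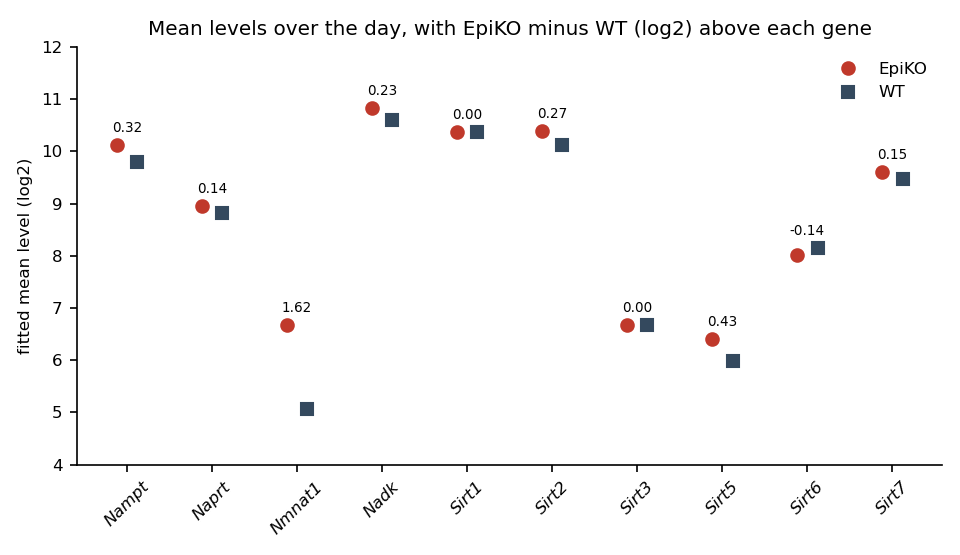
Mean level over the day (log2) in EpiKO (red circles) and WT (dark blue squares), with the difference of EpiKO minus WT above each gene. No source used here states a correction for gene length, so levels are to be compared between genotypes, not between genes. Nmnat1 stands out with 1.62, and Sirt6 is the one gene lower in EpiKO.

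The wider NAD pathway was described by lists chosen from textbook knowledge, with earlier results of these data known. Of 16 further NAD synthesis genes, 4 had the same rhythm and 12 none, against 16.7% and 56.7% of all genes. No difference in rhythm passed among them, against 5.17% of all genes. Nmnat2, the Golgi and axonal enzyme of the last step, had the deepest rhythm, 3.27-fold with a shared peak at ZT6.95 in the authors' deposited table. It was followed by the mitochondrial NAD kinase Nadk2 (1.48-fold, ZT7.64) in the authors' deposited table. Shallower shared curves there were those of Nmnat3 (1.25-fold, ZT7.51) and the nicotinamide riboside kinase Nmrk1 (1.16-fold, ZT8.43). The Nmnat3 rhythm passed in EpiKO (likelihood ratio test, adjusted p = 0.0215), while WT alone missed the threshold (adjusted p = 0.364). Nmrk1 was assigned at a weight of 0.53 and missed it in both genotypes (likelihood ratio test, adjusted p = 0.175 in EpiKO, 0.391 in WT). Nmrk1 also missed it in the joint test (adjusted p = 0.124), and its mean (log2) was 7.08 in EpiKO, against 9.37 in WT. The fitted shared curve of the mitochondrial kinase Nadk2 peaks in the light phase and that of the cytosolic kinase Nadk in the dark phase, at ZT16.6. The difference between these peak times was not tested. Aox1, an aldehyde oxidase that also oxidises methylated nicotinamide, cycled 2.05-fold with a peak at ZT5.82 in the authors' deposited table and was the one same-rhythm gene of 6 in NAD transport and redox.

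Of 19 other NAD-consuming enzymes, 4 had the same rhythm, 2 a rhythm in WT only and 9 none, and 4 stayed below the weight limit. Over all genes these classes hold 16.7%, 8.41%, 56.7% and 11.3%. The DNA damage sensor Parp1 cycled 1.19-fold with a peak at ZT18.8 and Parp8 1.27-fold at ZT5.45 in the authors' deposited table. Parp14 (1.42-fold in WT, ZT6.67) and the weakly expressed ectoenzyme Bst1 (7.26-fold in WT, ZT10.7) were in the WT-only class in the authors' deposited table, yet the difference in rhythm passed for neither (likelihood ratio test, adjusted p = 0.38 and 0.139).

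Differences in rhythm were called among sirtuin regulators and substrates, where 3 of 18 passed the test of the difference. This test passed for 5.17% of all genes and 6.95% of genes at or above the median level. Whether the list as a whole differs from these shares was not tested. Sod2, the mitochondrial superoxide dismutase deacetylated by SIRT3, cycled 1.21-fold in EpiKO and 1.50-fold in WT, with peaks at ZT17.2 and ZT13.4, in the authors' deposited table (likelihood ratio test, adjusted p = 4.74e-11). Glud1, a mitochondrial dehydrogenase regulated by SIRT4 and named after its values were seen, cycled 1.15-fold in EpiKO and 1.29-fold in WT in the authors' deposited table (adjusted p = 0.0124). Ppargc1a, the coactivator deacetylated by SIRT1, peaked at ZT8.26 in EpiKO and ZT23.8 in WT in the authors' deposited table (adjusted p = 3.72e-05). Foxo3, a SIRT1 substrate, was assigned the same rhythm (1.34-fold, ZT9.72), at a weight of 0.507 against 0.371 for WT only, in the authors' deposited table. Its rhythm passed in WT (likelihood ratio test, adjusted p = 4.65e-05) and not in EpiKO (adjusted p = 0.227). The acetyl-CoA synthetase Acss1, activated by SIRT3, was assigned to EpiKO only (1.45-fold, ZT12.7) in the authors' deposited table. No difference passed for Acss1 (adjusted p = 0.48).

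Peak times were set side by side. The 3 members with the same rhythm peaked in the dark phase, between ZT12.8 and ZT16.6, whereas 12 of the 13 same-rhythm genes on the 4 other NAD and sirtuin lists, which leave out clock and cell type marker genes, peaked in the light phase and Parp1 in the dark. Over all genes with the same rhythm 49.8% peaked in the dark. The split of the members depends on the weight limit of 0.5. At a limit of 0.4 Sirt5, with a peak at ZT2.19 in the light phase, joins those with the same rhythm. The 13 genes include some, such as Nmrk1, for which no test of a rhythm passed. The comparison of peak times is a description with no test, since they carry no error in the deposited fit.

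**Figure D5:**
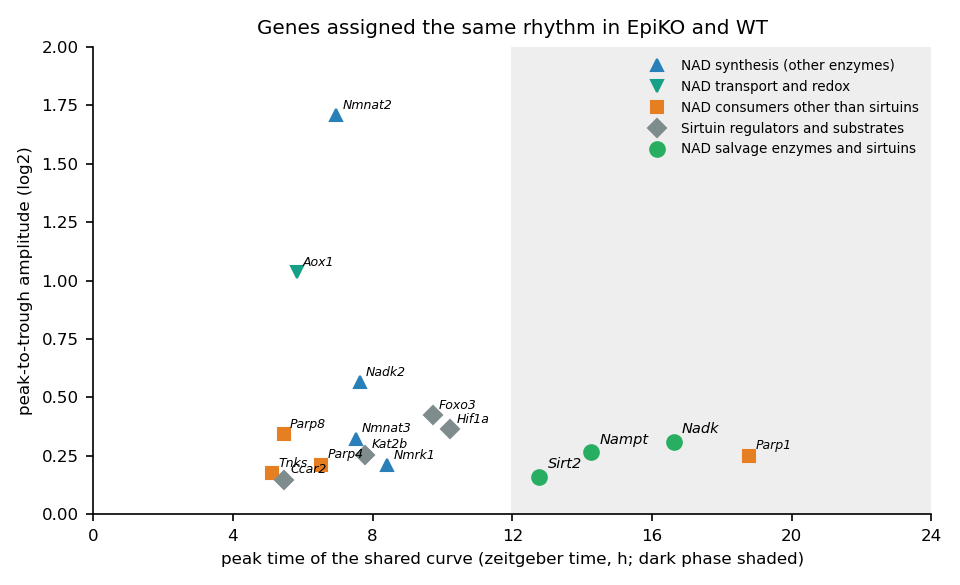
Peak time (zeitgeber time, h) and peak-to-trough amplitude (log2) of the genes assigned the same rhythm in EpiKO and WT, for the 10 genes and 4 further NAD and sirtuin lists, without clock and cell type marker genes. The green circles of Sirt2, Nampt and Nadk lie in the shaded dark phase and Nmnat2 has the largest amplitude plotted, 1.71.

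Among 2175 other same-rhythm genes at or above the median level, the curves nearest to that of Nampt belonged to Nfxl1, B3galnt2 and B4galnt1, with a root mean square distance between fitted curves of 0.00804 to 0.00926 (log2) over 24 h in both genotypes. Nadk was nearest to Pus7, Dhodh and Polr1b (0.0018 to 0.00635), and Sirt2 to Rps3, Phb2 and Mta1 (0.00275 to 0.00559).

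Very large differences of mean occurred in the same pathway. Nmrk2, a riboside kinase best known from muscle, has a mean of -2.29 in EpiKO and 7.52 in WT, Cd38, an NAD-degrading ectoenzyme of leukocytes, -0.86 and 6.83, and Slc12a8, described as a carrier of nicotinamide mononucleotide, 1.08 and 8.05 (log2) in the authors' deposited table. The EpiKO mean of Nmrk2 lies at percentile 3.2 of all genes and may stand for a gene that was not detected, so the size of its difference is uncertain. Nnt, the mitochondrial transhydrogenase, was named after its values were seen, which are 3.60 in EpiKO, against 8.43 in WT, by the authors' deposited table. This gene is known to be partly deleted in the C57BL/6J substrain, and the labels do not give a substrain, so that a difference in background cannot be told apart from the knockout.

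Marker genes of other cells also differed. All 7 measured keratinocyte markers were present, with means between 8.68 and 17.7 in EpiKO and between 8.68 and 17.8 in WT (log2), by the authors' deposited table. Leukocyte markers were higher in EpiKO in 4 of 5 cases, and their summed level (log2) was 11.3 in EpiKO, against 10.3 in WT; the Langerhans cell marker Cd207 had means of 7.28 and 5.80 in EpiKO and WT in the authors' deposited table. Muscle markers had a summed level of 2.74 in EpiKO and 9.90 in WT, where almost all of it was Acta1. Summed levels were 9.78 and 9.48 for 5 fibroblast markers, 3.80 and 3.08 for 3 endothelial markers, 8.43 and 8.57 for 4 melanocyte markers and 13.5 and 13.4 for 4 sebocyte markers (log2, EpiKO and WT). The sebocyte sum was mostly that of 1 gene given the same mean of 13.4 in both genotypes. Of single markers, 3 of 4 sebocyte, 3 of 3 endothelial and 2 of 5 fibroblast genes were called higher in EpiKO, against 31.8% of all genes. Among the melanocyte markers 1 of 4 was called lower and none higher. In bulk epidermis fewer cells of a type and less RNA per cell cannot be told apart, and the part of these cells in the mean differences of the 10 genes was not tested.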

How the data were processed

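RNA of 24 EpiKO epidermis samples was sequenced from a stranded polyadenylated RNA kit, per the labels' protocols. Tools listed in the submitters' processing notes are featureCounts 1.6.0, HISAT2 2.2.1, Trimmomatic 0.36, edgeR and SAMtools 1.3.1, without order or settings, and the build is mm10. Per the series design text, EpiKO and WT rhythms were compared with DryR, which fits cosine curves in each group and weighs models by an information criterion. The deposited table gives each weight as a fraction from 0 to 1, mean levels on a log2 scale whose library scaling no source used here states, and a score of relative amplitude that was not used. The side of the comparison that is not WT is headed FC and was taken as EpiKO, because the other side is headed WT and Arntl is called flat on the FC side. The deposited amplitude is the peak-to-trough height (log2). Depth per sample is unknown.

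The members and gene lists were chosen with earlier results of these data known. The named genes are the 10 members, Sirt4, Arntl, Dbp and Per2, the 3 nearest curves per rhythmic member, and per list up to 4 assigned rhythmic genes by amplitude and the largest mean difference, and not every one of these is described. Glud1, Nnt, Per1, Mafg, Cd207 and Acta1 are outside this rule and were named after their values were seen. Statistics were recovered as the change in log weight plus the penalty for 48 libraries, a number read from the largest weight of the shared-rhythm model (47.96), and compared with chi-square distributions of 2 degrees of freedom for a rhythm or a difference in rhythm, 4 for a rhythm in either genotype and 1 for the mean. The plan was to use them if none was below 0. With a tolerance of 0.01, 181 genes, none a member and all with a level under 0.31 (log2), failed this, were set to 0 and kept in. The test assumes that the noise of a gene is held fixed over its models; otherwise the chi-square distribution gives p-values that are too small, and an F distribution was tried. The recovery was checked on simulated data. Symbols matched 17720 identifiers. Positions come from GENCODE M21 (mm10) and promoters from RefSeq (GRCm38.p6). Computation ran in SciPy 1.17.1, pandas 2.3.3 and NumPy 2.4.6 under Python 3.11.15.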

Additional observations from a re-analysis of the deposited data

Results flagged for a closer look

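A difference in rhythm between EpiKO and WT passed the likelihood ratio test for 6 genes named here, none of them among the 10 NAD salvage and sirtuin genes. These are the clock genes Arntl (adjusted p = 2.3e-23), Dbp (adjusted p = 1.1e-27) and Per2 (adjusted p = 6.01e-09), and the sirtuin substrates Sod2 (adjusted p = 4.74e-11), Glud1 (adjusted p = 0.0124) and Ppargc1a (adjusted p = 3.72e-05). The WT curve was the deeper one in each of the 3 substrates, by the fitted amplitudes.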

How the results depend on the processing

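No paired analysis was possible because the deposited table holds no values per library, and for the same reason no replicate could be left out. The number of members with the same rhythm was 3, and 2 to 4 under the other weight limits, the minimum amplitude of 0.25 and the filter on low levels; that of members with no rhythm was 4, and 3 to 5. For a rhythm in EpiKO, 1 member passed (Nadk); 3 passed (Nampt and Sirt2 added) without genes under the 0.25 quantile or, added after seeing the data, the median of level, and 5 had a summed weight of at least 0.5. For a rhythm in WT, 4 passed, and 2 (Nampt and Nadk) did with the Benjamini-Yekutieli adjustment and with the F distribution, added after seeing the data. For the difference in rhythm, 0 passed under each adjustment, filter and distribution tried, and 1 (Sirt7) had a summed weight of at least 0.5. Over all genes that difference was called for 917, for 532 with the Benjamini-Yekutieli adjustment and for 3230 by summed weight; a rhythm in EpiKO for 2204, 924 and 5178; and one in WT for 3811, 2083 and 6111. For a rhythm in either genotype, 4 members passed, and 2 with the Benjamini-Yekutieli adjustment. For the mean, 8 differed, 7 with that adjustment (without Sirt6, adjusted p = 0.213, with 0.0183 to 0.213 over its alternatives) and 1 (Nmnat1) with a minimum difference of 0.5. Centring on the median of all genes could not change a call, since that median is 0, so it is no check of these calls. Sirt5 and Sirt7 in WT lie at the threshold, with adjusted p of 0.0358 to 0.481 and 0.0307 to 0.473 over the alternatives. Nampt and Sirt2 in EpiKO also do, at 0.0414 to 0.622 and 0.0377 to 0.567. Depth is unknown, and so is the smallest rhythm that these libraries could show.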
